A study of Homo sapiens with 16 samples.

Results

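The 31 genes described here carry out or control the making and movement of cholesterol in human cells. They are enzymes of sterol synthesis from acetyl-CoA, the sterol regulatory element binding proteins (SREBPs) and the proteins that hold or release them, enzymes of fatty acid synthesis and desaturation, and proteins that move sterol between membranes. The genes were chosen by name, with earlier results of these data known. Each was represented by the array row annotated to that gene alone, the row with the highest mean where there were several. Of the 31 genes, 29 had such a row and were measured. FDFT1 and HSD17B7 had no row of their own in the annotation used and are not analysed here. All 29 passed the filter on low values and were tested among 12978 genes, out of 18417 genes with a row. They comprised 15 genes of sterol synthesis, 5 SREBP genes and regulators, 5 genes of fatty acid synthesis and desaturation and 4 genes of sterol transport.

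Cells make cholesterol through the mevalonate pathway, whose enzymes turn acetyl-CoA into squalene and then into sterols. The SREBPs are transcription factors made as membrane precursors: when sterol is plentiful, SCAP and the INSIG proteins keep them in the endoplasmic reticulum, and when it is scarce, SCAP carries them to the Golgi, where they are cut and released to the nucleus. There they bind sterol regulatory elements, usually with the factor NF-Y at a nearby CCAAT box. SREBP-2 acts mainly on sterol synthesis and SREBP-1 mainly on fatty acid synthesis. In the brain, cholesterol is made locally, largely by glia, because lipoproteins of the blood do not cross the blood-brain barrier.

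RNA was measured on 16 arrays of the Affymetrix Human Gene 1.0 ST type, 1 per culture, from untreated, subconfluent, growing cells in DMEM with fetal bovine serum. STAG2 belongs to cohesin, a ring of proteins that tethers replicated chromosomes and shapes chromatin loops. H4 and 42MGBA, which the labels call glioblastoma cells, carry a STAG2 mutation. The deficient H4 group held the parental cells and the non-recombinant clones 10 and 12, and the corrected H4 group held clones 8-1, 8-3 and 88-1, in which the gene was repaired by knock-in and which were taken after Cre. The deficient 42MGBA group held the parental cells and the knock-in clones 53 and 92 before Cre, and the corrected group held clones 53-1, 53-7 and 92-6 after Cre. HCT116, a colorectal cancer line, was represented by the non-recombinant wild-type clones 24 and 27 and the STAG2 knockout clones 7 and 21, without parental cells. Each array is 1 clone or culture. Clones 8-1 and 8-3 share a clone number, as do 53, 53-1 and 53-7, and 92 and 92-6. The main fit did not allow for this, and a p-value here reflects the spread among these cultures only.

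Values are log2 expression, so a difference of 1 is a doubling. STAG2 itself averaged 6.72 ± 0.21 (SD, n = 3) in deficient and 8.91 ± 0.04 (n = 3) in corrected H4 arrays, a difference of -2.19 (limma adjusted p = 2.37e-05). It averaged 6.86 ± 0.41 (n = 2) in knockout and 9.29 ± 0.01 (n = 2) in wild-type HCT116 arrays, a difference of -2.44 (limma adjusted p = 0.000115). In 42MGBA it averaged 5.23 ± 0.44 in the arrays labelled deficient and 5.53 ± 0.12 in those labelled corrected (n = 3 each), and the difference of -0.30 did not pass (limma adjusted p = 1.0), so the STAG2 message does not separate the 42MGBA labels. The 42MGBA arrays were also on another scale, with array medians of at most 5.05 against 6.23 to 6.30 in H4 and 6.24 to 6.29 in HCT116, so their levels are set beside the other lines only as percentile ranks within an array. Of 14 glial and mesenchymal markers, 8 lay above the array median in H4 and 10 in 42MGBA, against 5 in each HCT116 group. GFAP, OLIG2, SOX2 and S100B did not in H4 or 42MGBA, nor did NES and COL1A2 in H4. Of 13 colorectal epithelial markers, 9 lay above it in HCT116, and KRT20, CDH17, LGALS4 and VIL1 did not. In H4, 5 of the 13 lay above it, and in 42MGBA 5 in the deficient and 6 in the corrected group.

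The promoters of 5 members are shown as examples, not by rank of difference. They are SREBF2, which encodes SREBP-2, HMGCS1 and FDPS of the mevalonate pathway, SC5D of late sterol synthesis and INSIG1, the sterol-regulated SREBP anchor. Each run holds the 250 bases before and the 50 bases after the start site, from RefSeq (GRCh38.p14), 5′ to 3′ on the gene's own strand. Windows were found for 27 of the 31 genes. Capitals mark 3 motifs searched on both strands, which did not overlap in these runs: TCACNCCAC, the core of a sterol regulatory element, CCAAT, the NF-Y box, which reads ATTGG on the other strand, and TGACGTCA, the cyclic AMP response element. The windows lie at chr22:41832855-41833154 (plus strand) for SREBF2, chr5:43313363-43313662 (minus strand) for HMGCS1, chr1:155308616-155308915 (plus strand) for FDPS, chr11:121292521-121292820 (plus strand) for SC5D and chr7:155297628-155297927 (plus strand) for INSIG1.
SREBF2: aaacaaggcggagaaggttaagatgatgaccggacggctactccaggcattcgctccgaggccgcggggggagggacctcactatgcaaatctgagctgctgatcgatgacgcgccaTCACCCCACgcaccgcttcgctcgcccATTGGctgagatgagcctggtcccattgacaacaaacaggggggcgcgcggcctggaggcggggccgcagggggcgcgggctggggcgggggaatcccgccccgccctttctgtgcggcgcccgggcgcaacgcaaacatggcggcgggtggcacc
HMGCS1: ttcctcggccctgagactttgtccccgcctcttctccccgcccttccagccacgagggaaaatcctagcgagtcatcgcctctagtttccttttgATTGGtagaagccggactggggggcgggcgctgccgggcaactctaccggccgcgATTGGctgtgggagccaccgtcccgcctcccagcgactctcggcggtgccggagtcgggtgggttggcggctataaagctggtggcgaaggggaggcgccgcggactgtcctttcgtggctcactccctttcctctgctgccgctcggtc
FDPS: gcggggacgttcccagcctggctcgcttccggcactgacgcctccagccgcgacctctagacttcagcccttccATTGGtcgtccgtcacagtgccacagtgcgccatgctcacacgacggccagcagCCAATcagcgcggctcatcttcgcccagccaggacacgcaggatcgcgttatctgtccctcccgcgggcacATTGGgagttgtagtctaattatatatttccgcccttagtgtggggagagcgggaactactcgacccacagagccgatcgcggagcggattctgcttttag
SC5D: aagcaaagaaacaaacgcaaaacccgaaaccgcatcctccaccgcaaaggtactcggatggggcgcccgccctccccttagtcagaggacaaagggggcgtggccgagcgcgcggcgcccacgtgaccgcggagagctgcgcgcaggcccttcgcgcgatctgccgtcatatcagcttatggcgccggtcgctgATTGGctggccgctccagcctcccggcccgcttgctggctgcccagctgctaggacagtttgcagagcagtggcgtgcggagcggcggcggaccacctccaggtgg
INSIG1: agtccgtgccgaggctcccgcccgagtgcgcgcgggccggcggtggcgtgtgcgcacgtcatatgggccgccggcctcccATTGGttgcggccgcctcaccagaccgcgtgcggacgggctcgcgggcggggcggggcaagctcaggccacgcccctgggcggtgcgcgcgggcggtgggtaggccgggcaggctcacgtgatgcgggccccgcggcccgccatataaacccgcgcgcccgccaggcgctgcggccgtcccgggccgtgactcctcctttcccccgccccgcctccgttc

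In the SREBF2 window the sterol regulatory element core begins at position -133 from the start site, on the plus strand, and a CCAAT box on the other strand lies at position -106. SREBF2 alone, 1 of 27 members, held the core in its window, against 1.15% of 27305 promoters. The CCAAT box was in 17 of 27 members (63.0%) and in 11 of 14 sterol synthesis genes (78.6%), against 35.7% of all promoters. HMGCS1 holds 2 such boxes, FDPS 3, SC5D 1 and INSIG1 1. The cyclic AMP response element was in 1 member, FADS1, and in 1.98% of all promoters. The windows shown all hold a CCAAT box and so do not stand for the members at large. The window of ABCA1, which passed the test in H4, holds no match to any of these motifs. A match describes these letters only, and a window without a match says nothing of the factor.

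In H4, the deficient arrays were lower than the corrected arrays for 13 of 15 sterol synthesis genes, with a median difference of -0.38 on the log2 scale. Across all 12978 genes 45.6% lay below 0 and the median was 0.02. Only 2 members passed the test, both lower in the deficient cells: SC5D, a late enzyme of sterol synthesis, and ABCA1, the pump that exports cholesterol to lipoproteins. That is 2 of 29 members called, against 3.31% of all genes called in either direction and 2.0% called lower. Other lists leaned the same way in H4: 8 of 10 proliferation markers were lower in the deficient arrays (median -0.13). That lean rested on single arrays, with 6 higher and 4 lower (median 0.04) without clone 10. Without clone 8-1 it was 5 higher and 5 lower (median -0.04). Of 12 tested glial and mesenchymal markers, 11 were lower (median -0.09), and COL1A1, a collagen, passed (-1.49, limma adjusted p = 0.00898). The part of these markers in the sterol values was not tested. In 42MGBA, 23 of 29 members were lower in the deficient arrays (60.3% of all genes), with a median difference of -0.22, or -0.10 without clone 53, and 0 passed limma's test, as did 0 of all genes (0.0%). In HCT116 the signs ran the other way: 23 of 29 members were higher in the knockout clones (46.6% of all genes), and 0 passed limma's test, against 0.131% of all genes. That direction rested on knockout clone 7: without it 14 of 29 members were higher and 15 lower, with a median of -0.02.

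At an unadjusted p under 0.05, 9 members were lower and 2 higher in H4, against 7.58% and 8.78% of all genes. That count was 1 of 29 in 42MGBA (MVK), against 3.95% of all genes, and 2 of 29 in HCT116 (SREBF2 and FADS1), against 7.83%. Bulk arrays cannot tell fewer expressing cells from less RNA per cell.

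**Figure D1:**
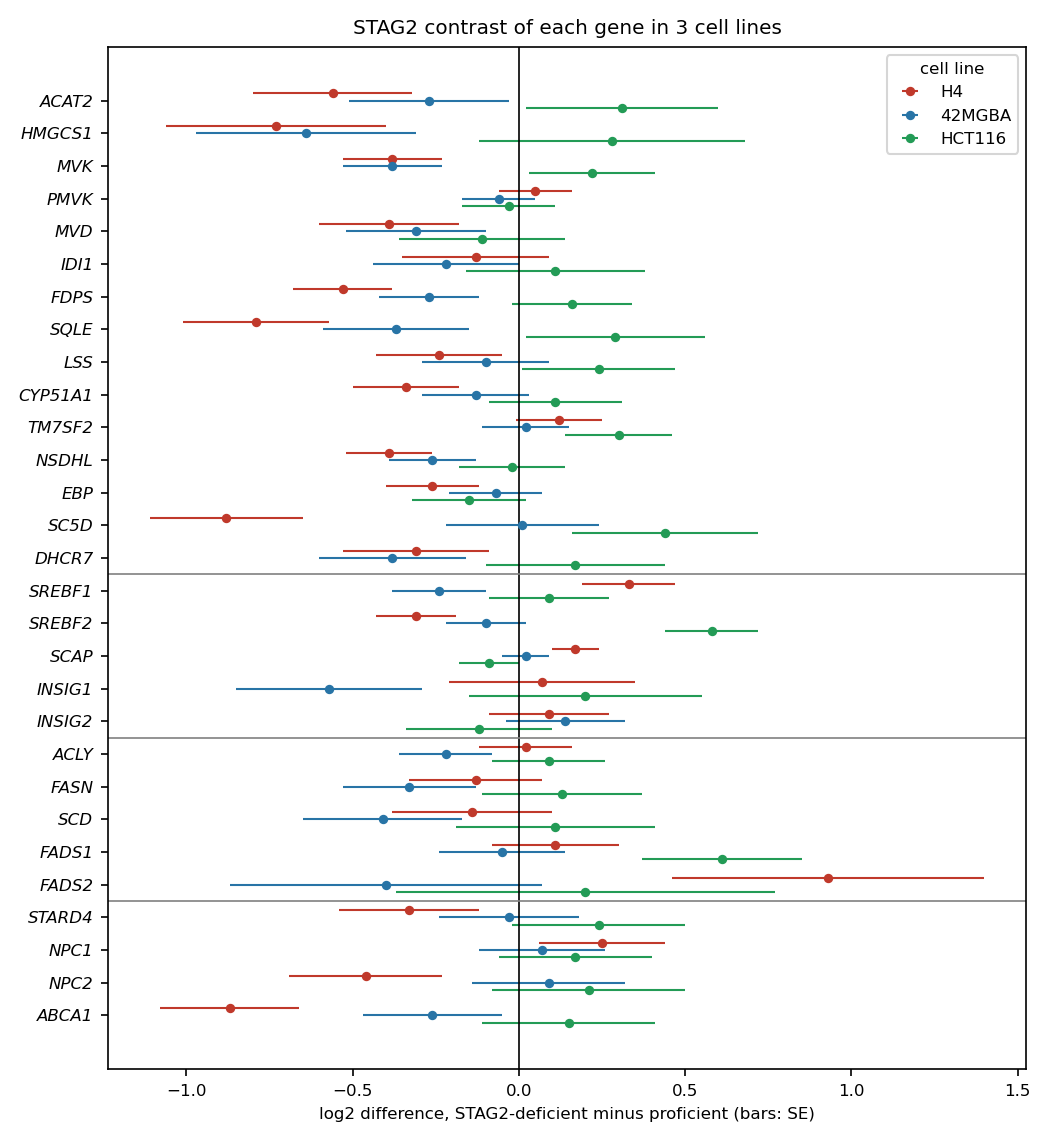
Difference between STAG2-deficient and proficient arrays (log2, horizontal axis) of the 29 measured members in H4, 42MGBA and HCT116, ordered by role, with bars for the SE of the limma fit. Most sterol synthesis genes lie left of 0 in H4 and 42MGBA and right of 0 in HCT116, and SC5D and ABCA1 in H4 are the only members past the threshold.

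The first enzymes lead from acetyl-CoA to the isoprenoid units. HMGCS1, which makes HMG-CoA, measured 9.74 in the H4 parental cells, 11.06 in clone 10 and 9.71 in clone 12, and 10.42, 11.09 and 11.19 in the corrected clones 8-1, 8-3 and 88-1. Clone 10 lay with the corrected clones, so the groups overlapped, and the difference of -0.73 (SE 0.33) did not pass (limma adjusted p = 0.278). Leaving out 1 H4 array at a time gave -1.18 (adjusted p = 0.0337) without clone 10, -0.52 (adjusted p = 0.483) without the parental cells and -0.50 (adjusted p = 0.629) without clone 12. In 42MGBA, HMGCS1 measured 8.94 in the parental cells, 8.70 in clone 53 and 9.62 in clone 92, against 9.57, 9.65 and 9.94 in clones 53-1, 53-7 and 92-6. Each pre-Cre clone lay below the post-Cre clones that carry its number, and clone 92 overlapped with the corrected group (difference -0.64, SE 0.33, limma adjusted p = 1.0). In HCT116 it measured 9.73 and 9.95 in the wild-type clones 24 and 27 and 10.42 and 9.82 in the knockout clones 7 and 21, with clone 21 between the wild-type values (difference 0.28, SE 0.40, adjusted p = 0.922).

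MVK, mevalonate kinase, measured 7.42, 7.70 and 7.27 in the deficient H4 arrays (parental, 10, 12) and 7.73, 8.06 and 7.75 in the corrected arrays (8-1, 8-3, 88-1). The groups did not overlap, though clone 10 lay just below the lowest corrected array, and the difference of -0.38 (SE 0.15) did not pass (limma adjusted p = 0.208). In 42MGBA the values were 5.99, 5.68 and 6.12 (parental, 53, 92) against 6.10, 6.41 and 6.43 (53-1, 53-7, 92-6). The difference was again -0.38 (SE 0.15, unadjusted p = 0.024, limma adjusted p = 1.0), with clone 92 just above clone 53-1. In HCT116 the wild-type clones measured 7.47 and 7.53 and the knockout clones 7 and 21 measured 7.91 and 7.52, so clone 7 alone stood above the rest (difference 0.22, adjusted p = 0.828).

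FDPS, which makes farnesyl diphosphate, the branch point to sterols and other isoprenoids, measured 9.34, 9.57 and 9.03 in the deficient H4 arrays and 9.65, 9.88 and 10.00 in the corrected arrays, in the same order of clones. The groups did not overlap, and the difference was -0.53 (SE 0.15, limma adjusted p = 0.0683). It was -0.66 (adjusted p = 0.0376) without clone 10 and -0.39 (adjusted p = 0.258) without clone 12. In 42MGBA it measured 7.38, 7.29 and 7.47 against 7.42, 7.74 and 7.77, where clone 92 overlapped with clone 53-1 (difference -0.27, adjusted p = 1.0). In HCT116 the wild-type arrays read 9.48 and 9.39 and the knockout arrays 9.81 and 9.38, again with only clone 7 above (difference 0.16, adjusted p = 0.88).

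Of the other early enzymes, ACAT2, which joins acetyl-CoA units, averaged 8.81 ± 0.17 in deficient and 9.37 ± 0.18 in corrected H4 arrays (n = 3 each), without overlap. Its difference of -0.56 (SE 0.24) did not pass (limma adjusted p = 0.248). The limma adjusted p was 0.367 with clones of the same parent averaged. It was 0.0393 with 42MGBA clones 53 and 92 as replicate blocks, where the H4 difference stayed at -0.56. Those blocks left the H4 arrays unblocked and changed the spread shared by the lines. MVD, mevalonate diphosphate decarboxylase, differed by -0.39 in H4 and -0.31 in 42MGBA, and IDI1, isopentenyl diphosphate isomerase, by -0.13 and -0.22. PMVK, phosphomevalonate kinase, was near 0 in all 3 lines, at 0.05 in H4, -0.06 in 42MGBA and -0.03 in HCT116. These differences did not pass the test.

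The later enzymes close squalene into a ring and trim it to cholesterol. SQLE, squalene epoxidase, a rate-controlling oxygenase, measured 9.09, 9.65 and 9.26 in the deficient H4 arrays and 9.86, 10.25 and 10.24 in the corrected arrays. Every corrected array was above every deficient array, and the difference of -0.79 (SE 0.22) was just short of the threshold (limma adjusted p = 0.0701). In 42MGBA it measured 8.34, 7.87 and 8.67 against 8.62, 8.59 and 8.77, with clone 53 lowest and clone 92 within the corrected range (difference -0.37, adjusted p = 1.0). In HCT116 the wild-type clones 24 and 27 lay far apart, at 9.78 and 10.63, and enclosed the knockout values of 10.54 and 10.45 (difference 0.29, adjusted p = 0.85).

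SC5D, the sterol desaturase, measured 8.97, 9.21 and 9.14 in the deficient H4 arrays and 9.63, 10.36 and 9.96 in the corrected arrays. The groups did not overlap, and the means of 9.11 ± 0.12 and 9.98 ± 0.36 (SD, n = 3 each) gave a difference of -0.88 (SE 0.23, 1.84-fold lower, limma adjusted p = 0.048). The call sat at the threshold: leaving out 1 H4 array at a time gave differences from -1.05 to -0.69, and the adjusted p reached 0.193 without clone 8-3. In 42MGBA SC5D measured 8.03, 7.95 and 8.44 against 8.44, 7.54 and 8.40, so the corrected clone 53-7 was the lowest array of the line (difference 0.01, adjusted p = 1.0). In HCT116 it measured 8.93 and 9.05 in wild-type and 9.63 and 9.24 in knockout clones 7 and 21, without overlap (difference 0.44, SE 0.28, adjusted p = 0.748).

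NSDHL, a sterol dehydrogenase encoded on the X chromosome, measured 8.76, 9.13 and 8.77 in the deficient and 9.16, 9.37 and 9.30 in the corrected H4 arrays, without overlap (difference -0.39, SE 0.13, limma adjusted p = 0.114). Its difference was -0.51 (adjusted p = 0.0491) without clone 10 and -0.33 (adjusted p = 0.33) without clone 12. In 42MGBA it was 6.50, 6.44 and 6.62 against 6.66, 6.81 and 6.86, also without overlap (difference -0.26, SE 0.13, unadjusted p = 0.0615, adjusted p = 1.0). In HCT116 the wild-type arrays read 8.83 and 8.85 and lay between the knockout clones 21 and 7, at 8.59 and 9.05. NSDHL thus did not overlap between groups in both lines with a STAG2 mutation and did overlap in HCT116.

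TM7SF2, a sterol reductase, was with PMVK 1 of the 2 sterol genes above 0 in H4. It measured 6.79, 6.70 and 6.71 in the deficient and 6.33, 6.68 and 6.82 in the corrected H4 arrays, which overlapped (difference 0.12, adjusted p = 0.717). In 42MGBA it was 7.02, 6.90 and 7.21 against 7.20, 7.07 and 6.80, with no separation (difference 0.02). In HCT116 it measured 7.59 and 7.69 in the wild-type and 7.98 and 7.90 in the knockout clones, which did not overlap (difference 0.30, SE 0.16, limma adjusted p = 0.683).

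The remaining late enzymes were below 0 in H4 without passing the test: CYP51A1, the lanosterol demethylase, at -0.34, DHCR7, which takes the last step to cholesterol, at -0.31, EBP, a sterol isomerase, at -0.26, and LSS, which closes the ring, at -0.24. In 42MGBA they lay at -0.13, -0.38, -0.07 and -0.10, and in HCT116 at 0.11, 0.17, -0.15 and 0.24. CYP51A1 had 2 rows, and its row not used here did not overlap in H4. That row read 9.14 to 9.35 in the deficient and 9.42 to 9.68 in the corrected H4 arrays. In 42MGBA it read only 5.2 to 5.6, and the groups overlapped. In H4, 7 of the 15 sterol synthesis genes were lower in every deficient array than in any corrected array (ACAT2, MVK, FDPS, SQLE, NSDHL, EBP and SC5D), against 8.68% of all genes. In 42MGBA that held for 2 of 15 (IDI1 and NSDHL), against 6.33%. In HCT116, 4 of 15 were higher in both knockout clones than in both wild-type clones (ACAT2, LSS, TM7SF2 and SC5D), against 18.5% of all genes.

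**Figure D2:**
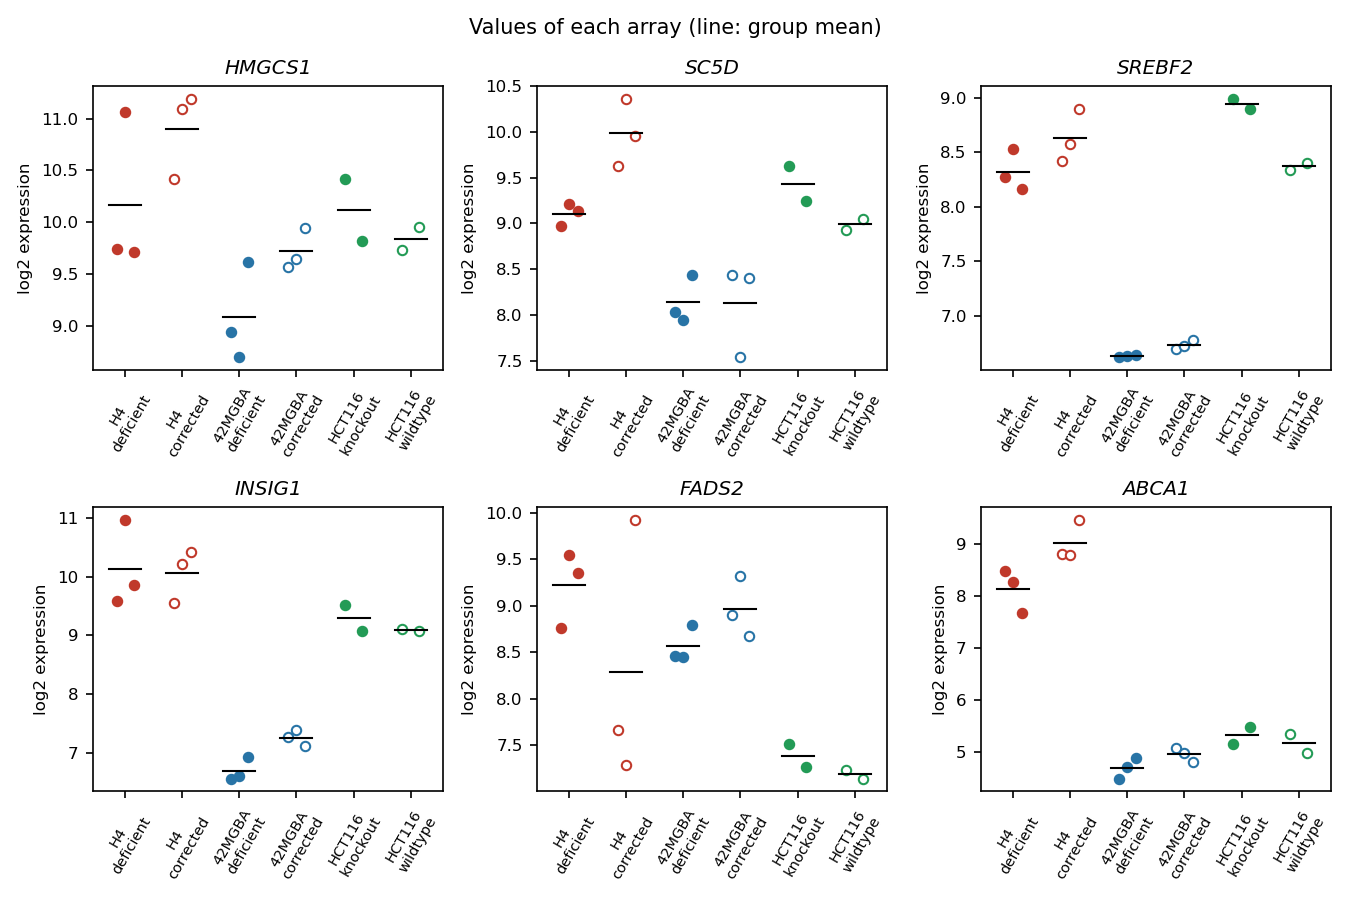
Log2 expression (vertical axis) of HMGCS1, SC5D, SREBF2, INSIG1, FADS2 and ABCA1 on each array, by line and STAG2 status, with 1 point per array and a line at the group mean; the vertical range differs between panels and the 42MGBA arrays are on another scale. SC5D and ABCA1 separate the deficient from the corrected H4 arrays, SREBF2 separates the HCT116 knockout from the wild-type arrays, and FADS2 in H4 clone 88-1 (9.92) lies far above clones 8-1 and 8-3.

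Among the SREBP genes, SREBF2 went one way in H4 and the other in HCT116. It measured 8.34 and 8.40 in the HCT116 wild-type clones and 8.99 and 8.90 in the knockout clones, with a gap much wider than the spread within either pair. The means of 8.37 ± 0.04 and 8.95 ± 0.06 (SD, n = 2 each) differed by 0.58 (SE 0.14, 1.49-fold, unadjusted p = 0.00107), which did not pass over all genes (limma adjusted p = 0.218). In H4 it measured 8.27, 8.53 and 8.16 in the deficient and 8.42, 8.58 and 8.90 in the corrected arrays, where clone 10 overlapped with clone 8-1 (difference -0.31, SE 0.12, adjusted p = 0.174). In 42MGBA it measured 6.62, 6.63 and 6.64 against 6.69, 6.72 and 6.78, a separation without overlap but of only -0.10 (SE 0.12, adjusted p = 1.0). The difference between the H4 and HCT116 contrasts was -0.89 (SE 0.18, unadjusted p = 0.000226, limma adjusted p = 0.0652).

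SREBF1, which encodes SREBP-1, measured 8.51, 8.80 and 8.69 in the deficient and 8.10, 8.21 and 8.71 in the corrected H4 arrays. Clones 8-1 and 8-3 were low and clone 88-1 lay with the deficient arrays (difference 0.33, SE 0.14, limma adjusted p = 0.264). In 42MGBA it measured 6.19, 6.34 and 6.45 against 6.51, 6.76 and 6.42, with the opposite sign (difference -0.24, adjusted p = 1.0). The contrast of H4 minus that of 42MGBA was 0.57 (SE 0.20, unadjusted p = 0.0138, limma adjusted p = 0.285). In HCT116 it was 8.32 and 8.23 in wild-type and 8.33 and 8.40 in knockout clones, so the groups nearly touched (difference 0.09, adjusted p = 0.953).

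INSIG1, the anchor that is itself an SREBP target, varied widely between clones of H4: 9.59, 10.96 and 9.86 in the deficient and 9.55, 10.22 and 10.43 in the corrected arrays. Clone 10 was the highest array of the line, and the difference of 0.07 (SE 0.28) turned to -0.34 without it and was 0.34 without the parental cells. In 42MGBA INSIG1 measured 6.56, 6.60 and 6.92 in the deficient and 7.27, 7.38 and 7.12 in the corrected arrays, without overlap (difference -0.57, SE 0.28, unadjusted p = 0.0653, limma adjusted p = 1.0). In HCT116 it measured 9.11 and 9.08 in wild-type and 9.52 and 9.07 in knockout clones, with clone 7 alone above (difference 0.20, adjusted p = 0.943).

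INSIG2, the other anchor protein, measured 8.61, 9.30 and 8.81 in the deficient and 8.46, 9.02 and 8.96 in the corrected H4 arrays. In 42MGBA it measured 6.93, 7.38 and 7.14 against 7.06, 7.12 and 6.85, and in HCT116 8.49 and 8.71 in wild-type against 8.44 and 8.51 in knockout clones. The groups overlapped in every line, with differences of 0.09, 0.14 and -0.12. SCAP, the escort, averaged 8.36 ± 0.03 in deficient and 8.20 ± 0.06 in corrected H4 arrays, the only member higher in H4 without overlap, against 12.1% of all genes (difference 0.17, SE 0.07, limma adjusted p = 0.28). Its differences in 42MGBA and HCT116 were 0.02 and -0.09.

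In fatty acid synthesis the H4 arrays showed no common direction, with differences of 0.02 for ACLY, which supplies acetyl-CoA from citrate, -0.13 for FASN, the fatty acid synthase, and -0.14 for SCD, which makes monounsaturated fatty acids. All 5 genes of the group were below 0 in 42MGBA, with a median of -0.33, and all 5 were above 0 in HCT116, with a median of 0.13. Without knockout clone 7 the HCT116 count was 3 higher and 2 lower with a median of 0.04, and without clone 21 the median was 0.32. In 42MGBA, ACLY, at -0.22, and FASN, at -0.33, did not overlap between groups, which with IDI1, NSDHL, SREBF2 and INSIG1 made 6 of 29 members, against 6.33% of all genes. None passed the test.

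FADS1, the desaturase of polyunsaturated fatty acids next to FADS2 on chromosome 11, measured 8.80 and 8.74 in the HCT116 wild-type and 9.37 and 9.40 in the knockout clones. The pairs were tight and well apart (8.77 ± 0.05 and 9.38 ± 0.02, SD, n = 2 each), and the difference of 0.61 (SE 0.24, unadjusted p = 0.0201) did not pass (limma adjusted p = 0.553). In H4 it measured 9.25, 9.94 and 9.42 against 9.07, 9.26 and 9.96, and in 42MGBA 8.50, 8.44 and 8.66 against 8.58, 8.59 and 8.58. The groups overlapped in both lines, with differences of 0.11 and -0.05. With ACAT2, LSS, TM7SF2, SC5D, SREBF1, SREBF2 and FADS2, FADS1 made 8 of 29 members without overlap in HCT116, all higher in the knockout clones, against 18.5% of all genes.

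FADS2, the partner desaturase, is given in full because its corrected H4 clones split widely, which was seen in its values. It measured 8.76, 9.55 and 9.35 in the deficient H4 arrays and 7.66, 7.29 and 9.92 in clones 8-1, 8-3 and 88-1. The clones 8-1 and 8-3, which share a clone number, were lowest and clone 88-1 was the highest of the line, so the corrected group had an SD of 1.43 and the difference of 0.93 (SE 0.47) did not pass (limma adjusted p = 0.344). Without clone 88-1 the difference was 1.74 (adjusted p = 0.00179), and without clone 8-3 it was 0.43 (adjusted p = 0.77). In 42MGBA it measured 8.46, 8.45 and 8.79 against 8.90, 9.32 and 8.68 (difference -0.40), and in HCT116 7.23 and 7.14 in wild-type against 7.51 and 7.26 in knockout clones (difference 0.20). Neither passed the test.

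Among the transport genes, ABCA1 measured 8.49, 8.28 and 7.67 in the deficient H4 arrays and 8.82, 8.79 and 9.46 in the corrected arrays. Every corrected array was above every deficient array, clone 12 was lowest and clone 88-1 highest. The means of 8.15 ± 0.43 and 9.02 ± 0.38 (SD, n = 3 each) differed by -0.87 (SE 0.21, 1.83-fold lower, limma adjusted p = 0.0363). The limma adjusted p was 0.144 without clone 12 and 0.135 without clone 88-1. It was 0.0582 without clone 10, 0.0578 without clone 8-3 and 0.056 without clone 8-1. With 1 H4 array left out, ABCA1 stayed called only without the parental cells (limma adjusted p = 0.0159). The limma adjusted p was 0.079 with clones of the same parent averaged and 0.173 with each line fitted alone. It was 0.0551 with 42MGBA clones 53 and 92 as replicate blocks, which left the H4 arrays unblocked and changed the spread shared by the lines. In 42MGBA ABCA1 measured 4.49, 4.71 and 4.89 against 5.08, 4.98 and 4.81, and in HCT116 5.34 and 4.99 in wild-type against 5.16 and 5.49 in knockout clones. These readings overlapped between groups. They lay below the middle of their arrays except in clone 53-1, with median percentiles of 47.4 and 35.1, so the contrasts of -0.26 and 0.15 rest on low signal.

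STARD4, a soluble carrier of sterol, differed by -0.33 in H4, -0.03 in 42MGBA and 0.24 in HCT116. NPC2 and NPC1, which pass cholesterol out of lysosomes, had opposite signs in H4, with NPC2 at -0.46 and NPC1 at 0.25, and lay at 0.09 and 0.07 in 42MGBA and at 0.21 and 0.17 in HCT116. None of these passed the test.

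The contrasts of the 3 lines share no array. Below 0 in both H4 and 42MGBA and above 0 in HCT116 were 9 of 15 sterol synthesis genes and 14 of 29 members, against 12.5% of all genes. Without HCT116 knockout clone 7 these counts were 4 of 15 and 7 of 29, against 12.9% of all genes, and without knockout clone 21 they were 12 of 15 and 16 of 29, against 12.4%. Differences between lines were tested directly and 0 members passed in limma's fit for H4 against 42MGBA, H4 against HCT116 or 42MGBA against HCT116, where 0.254%, 0.293% and 0.0231% of all genes were called. At an unadjusted p under 0.05 the counts of members were 2, 8 and 3, against 11.3%, 13.5% and 4.85% of all genes. Between H4 and HCT116 the members after SREBF2 with the lowest adjusted p were SC5D (difference of contrasts -1.32, SE 0.36, limma adjusted p = 0.128), ABCA1 (-1.03, SE 0.33, adjusted p = 0.19) and SQLE (-1.07, SE 0.35, adjusted p = 0.191). The mean over the 3 lines was below 0 for 14 of 15 sterol synthesis genes and for 21 of 29 members, against 54.1% of all genes. In that mean 0 members passed limma's test and 0.139% of all genes did, and 3 members were lower at an unadjusted p under 0.05 (5.84% of all genes), the lowest adjusted p being 0.359 for NSDHL (-0.22, SE 0.08).

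The sterol genes also differed between clones of the same group. In H4 the median deviation of the 15 genes from the line's mean was -0.36 in the parental cells, -0.39 in clone 12 and 0.05 in clone 10, against 0.04 in clone 8-1, 0.31 in clone 8-3 and 0.27 in clone 88-1. Clone 10 thus lay with clone 8-1. Leaving out 1 H4 array at a time gave a median difference of the 15 genes from -0.52 (without clone 10) to -0.28 (without clone 12), with 13 or 14 of 15 lower each time. The fatty acid genes of clone 10 were at 0.45, the highest of the line, and its 10 proliferation markers at -0.30, the lowest, while clone 8-1 had fatty acid genes at -0.29 and proliferation markers at 0.29. The part of these markers in the sterol values was not tested.

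In 42MGBA clone 53 was below the line's mean for 15 of 15 sterol genes and the lowest array for 11 of them, with a median deviation of -0.29. Clone 92 was at 0.10, level with clone 53-7 at 0.11 and above clone 53-1 at 0.01, and clone 92-6 was highest at 0.26. The fatty acid genes of clone 53 were at -0.31 and its proliferation markers at -0.26, and their part in the sterol values was not tested. Without clone 53 the median difference of the sterol genes went from -0.26 to -0.10, with 11 of 15 lower. In HCT116 knockout clone 7 was the highest array for 11 of 15 genes, at 0.29, while knockout clone 21 was at -0.13, near the wild-type clones 24 at -0.15 and 27 at -0.03. Proliferation markers were at 0.02 in both knockout clones, and their part in the sterol values was not tested. Without clone 7 the sterol genes had 7 higher and 8 lower and a median of -0.02, and without clone 21 they had 14 higher and 1 lower and a median of 0.37, so the direction in HCT116 rested on clone 7.

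**Figure D3:**
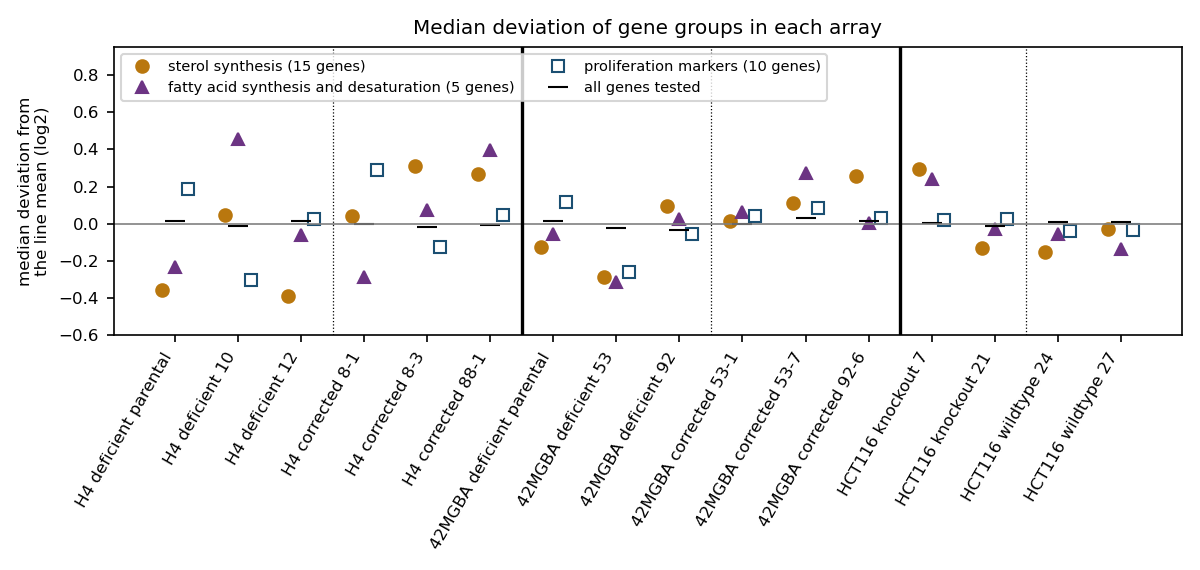
Median deviation from the line's mean (log2, vertical axis) of the 15 sterol synthesis genes, the 5 fatty acid genes, the 10 proliferation markers and all genes tested, for each of the 16 arrays. H4 clone 10 (0.05) lies away from the other deficient H4 arrays (-0.36 and -0.39), and HCT116 clone 7 (0.29) away from knockout clone 21 (-0.13).

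**Figure D4:**
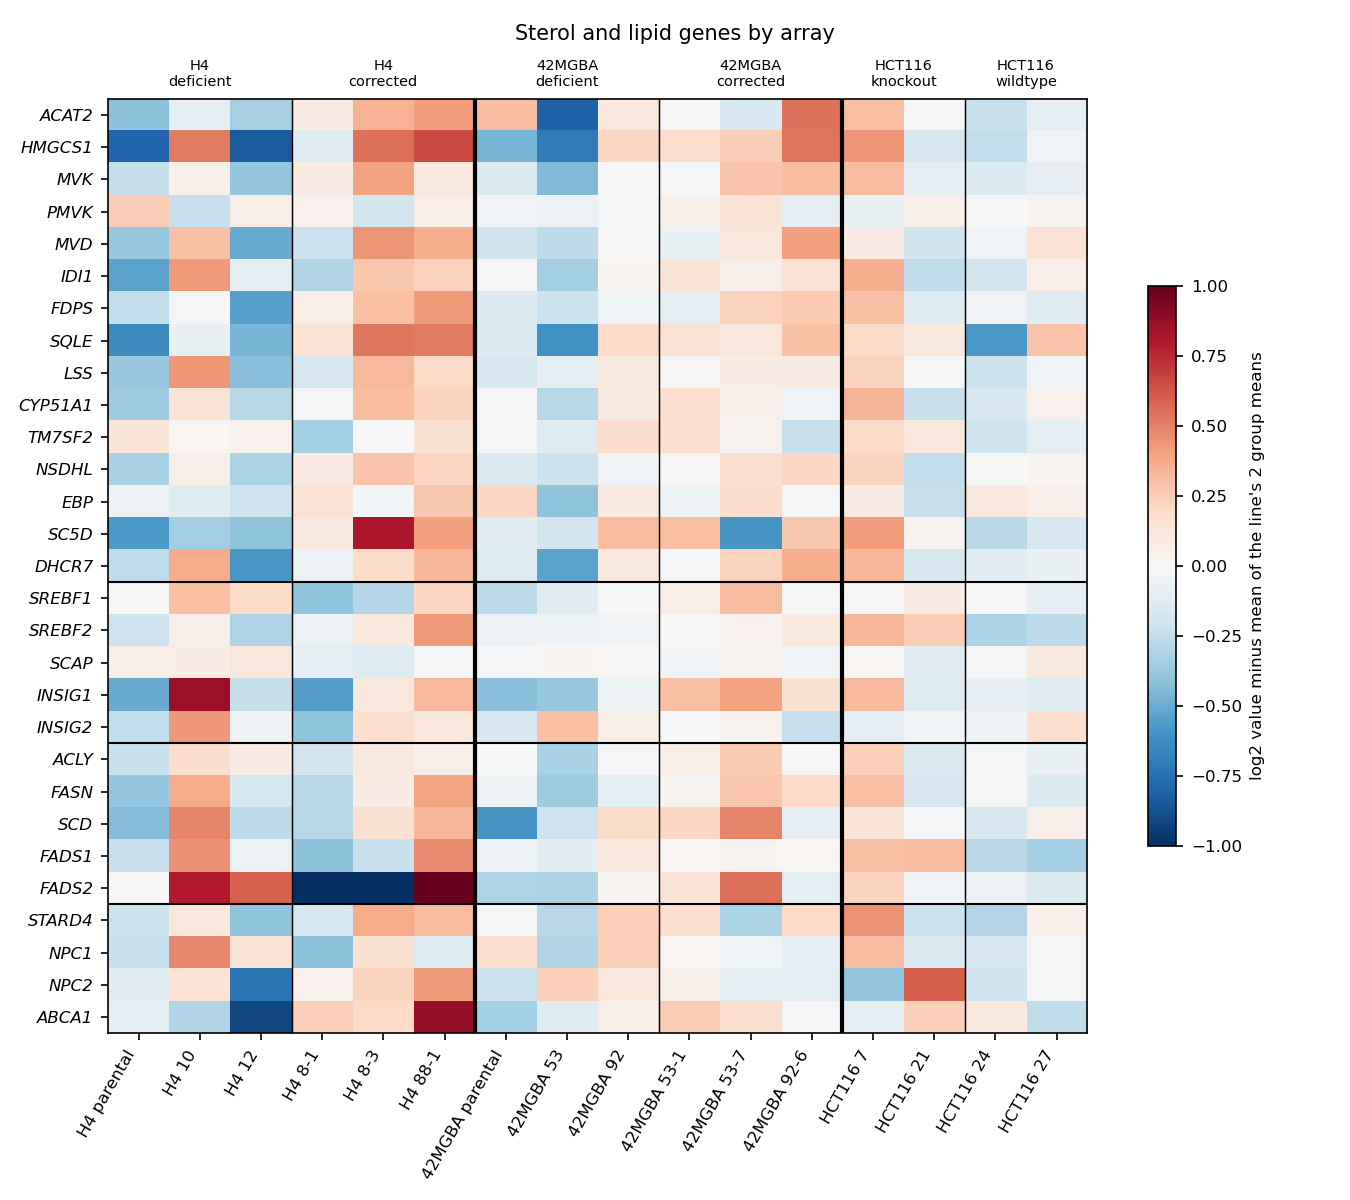
Deviation of each measured member from its line's mean (log2, colour) on each of the 16 arrays, with members ordered by role and arrays by line and STAG2 status, and the colour scale ending at -1 and 1. Columns of nearly 1 colour across the sterol synthesis genes show arrays in which the group was low, such as 42MGBA clone 53, or high. HCT116 clone 7 was high in all of them but PMVK (-0.08).

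The members varied more between arrays of a group than most genes. Their median pooled SD within groups was 0.28 in H4, 0.18 in 42MGBA and 0.20 in HCT116, against 0.14, 0.13 and 0.12 for all genes tested. In H4 the widest were FADS2, with a pooled SD of 1.05, HMGCS1, with 0.62, and INSIG1, with 0.61. ABCA1 had 0.40 in H4, 0.17 in 42MGBA and 0.24 in HCT116, so the spread shared by the fit understates its spread in H4.

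Levels were compared between H4 and HCT116, whose arrays are on 1 scale, as the mean of both groups of each line. Here 15 of 29 members passed, 8 higher and 7 lower in H4, against 61.8% of all genes in either direction, 28.2% higher and 33.6% lower, which is not above the share of all genes. ABCA1, counted among the 8, averaged 8.58 in H4 and 5.25 in HCT116, where no array read above its median. It entered the test through H4, so these levels are a description, without a fold or a p-value. NPC1, the lysosomal cholesterol transporter, was higher in H4 by 1.32 (10.38 and 9.06, SE 0.15, limma adjusted p = 2.02e-06), LSS by 1.13 (9.47 and 8.35, SE 0.15, adjusted p = 8.39e-06) and FADS2 by 1.47 (8.75 and 7.28, SE 0.37, adjusted p = 0.00281). ABCA1, LSS and NPC1 had no H4 array within the HCT116 range, while FADS2 in clone 8-3 did.

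TM7SF2 was lower in H4 by -1.11 (line means 6.67 and 7.79, SE 0.10, limma adjusted p = 1.84e-07), with every H4 array below every HCT116 array. FASN differed by -0.64 (9.88 and 10.51, SE 0.15, adjusted p = 0.00219), also without overlap. SQLE, at -0.62 (9.73 and 10.35, SE 0.17, adjusted p = 0.00591), and MVD, at -0.56 (8.36 and 8.92, SE 0.16, adjusted p = 0.0069), overlapped between the lines. The other members that passed were INSIG1, NPC2, FADS1 and NSDHL, which were higher in H4, and DHCR7, PMVK and SCAP, which were lower. In all, 4 members were higher and 3 lower without overlap, against 21.9% and 25.2% of all genes.

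**Figure D5:**
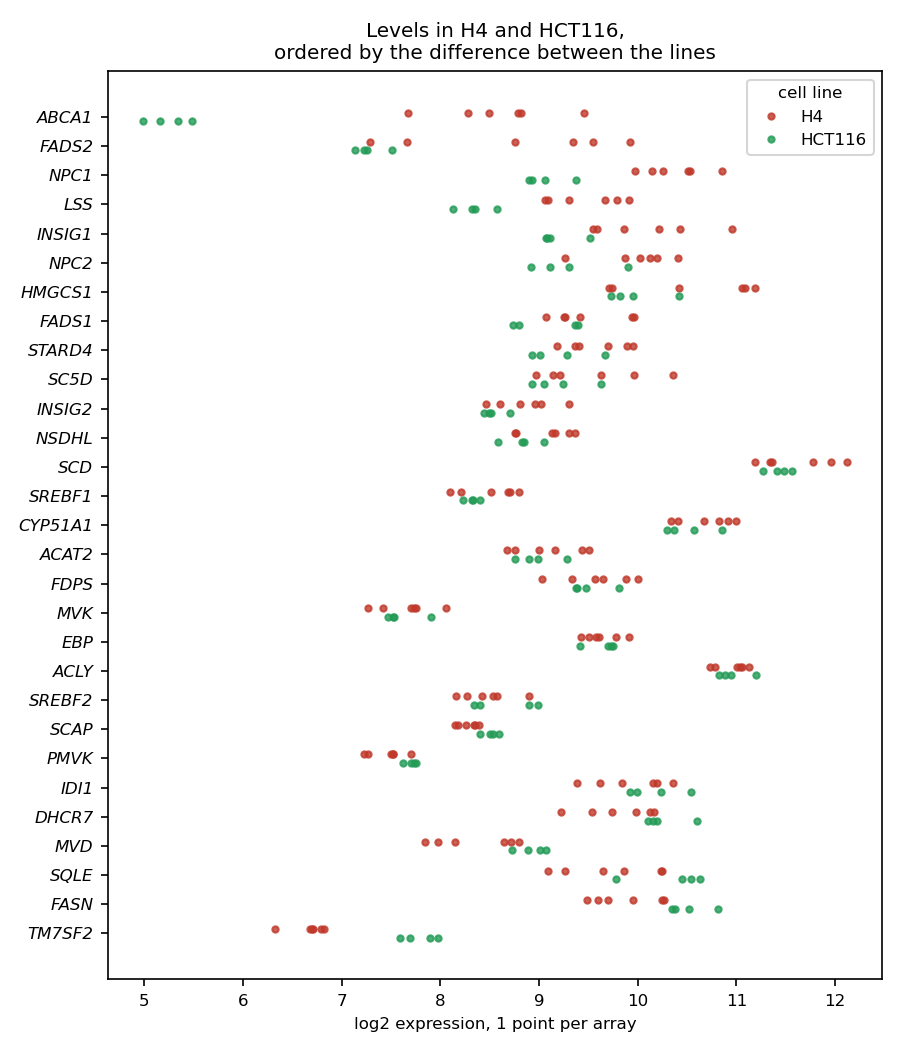
Log2 expression (horizontal axis) of each measured member on the 6 H4 and 4 HCT116 arrays, with 1 point per array, ordered by the difference between the lines. ABCA1 is the widest difference, at line means of 8.58 and 5.25, and TM7SF2 lies at the other end, at 6.67 and 7.79.

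As ranks within an array, which can be set beside 42MGBA, most members lay well above the middle of the array in each line. SCD was at a median percentile of 97.6 in H4, 97.9 in 42MGBA and 97.3 in HCT116, and HMGCS1 at 95.3, 96.9 and 91.7. ABCA1 stood apart, at 81.2 in H4, 47.4 in 42MGBA and 35.1 in HCT116. FADS2 was at 85.0, 94.3 and 64.3, TM7SF2 at 56.9, 81.3 and 71.6 and IDI1 at 92.2, 78.3 and 92.7. These ranks are a description, since the 42MGBA values may have been processed apart from the others.

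Further genes of the pathway were read from lists of 11 other sterol and isoprenoid genes, 18 other SREBP processing and turnover genes, 21 other fatty acid and glycerolipid genes and 21 other sterol sensing, efflux and storage genes, counting those tested. In H4, 3 of these 71 genes passed (4.23%), near the 3.31% of all genes. ACSL1, which activates fatty acids, was lower in deficient cells by -0.96 (9.62 and 10.58, SE 0.21, limma adjusted p = 0.0253), and GRAMD1B, a carrier of plasma membrane cholesterol, was higher by 0.89 (7.55 and 6.66, SE 0.22, adjusted p = 0.0438). The third was SMPDL3A, a sterol-responsive phosphodiesterase, which measured 5.40 to 5.77 in the deficient and 6.37 to 6.93 in the corrected H4 arrays. Only the 3 corrected H4 arrays lay above the array median, so SMPDL3A entered the test through the group where it is high and its values are a description. The sterol and isoprenoid list had 5 higher and 6 lower in H4, with TMEM97, a sterol-regulated membrane protein, having the smallest p (-0.39, adjusted p = 0.122), and a median of -0.01. The SREBP processing list had 15 higher and 3 lower, with a median of 0.11, led by RNF145, a ubiquitin ligase of the endoplasmic reticulum (0.47, adjusted p = 0.102). The fatty acid list had 9 higher and 12 lower, and the sensing list 14 higher and 7 lower. Across all genes tested, 54.4% were higher and 45.6% lower in H4. In H4, 16 of the 71 genes (22.5%) had an unadjusted limma p under 0.05 in either direction. Of all genes, 8.78% were higher and 7.58% lower at that level.

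In 42MGBA and HCT116, 0 genes of these lists passed limma's test. The smallest p in 42MGBA were those of FNTA (-0.27), a prenyltransferase subunit, SPRING1 (0.23), which supports SREBP cleavage, FADS3 (-0.22) and VLDLR (-0.43), a lipoprotein receptor, all with a limma adjusted p of 1.0. In HCT116 they were those of GGPS1 (0.31, adjusted p = 0.48), which makes geranylgeranyl diphosphate, SEC24D (0.41, adjusted p = 0.607), a coat protein of transport vesicles, GPAM (-0.54, adjusted p = 0.533), of glycerolipid synthesis, and GRAMD1C (0.89, adjusted p = 0.299). At an unadjusted p under 0.05 there were 3 such genes in 42MGBA (4.23% of the 71, against 3.95% of all genes) and 7 in HCT116 (9.86%, against 7.83%).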

How the data were processed

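The deposited table holds 33297 rows and 16 columns of log2 expression values, produced by the authors, per the submitters' processing notes, by the RMA method in Affymetrix Expression Console, with versions not given in the sources used here. RMA subtracts background, equalises the distributions of the arrays it is given and reduces the probes of a row to 1 value. The platform annotation names 1 gene for 19460 rows, several for 1754 and lists no entry for 12083. Symbols were updated to RefSeq (GRCh38.p14) through Entrez identifiers for 19429 rows. A gene was tested if its row was above the array's median of all rows on at least 2 arrays.

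Group means were modelled in R 4.3.3 with lmFit, contrasts.fit and eBayes of limma 3.58.1, on all 16 arrays in 6 groups taken from the titles, so that each gene has 1 shared spread. Two-sided p-values were adjusted over 12978 genes (Benjamini-Hochberg), and a gene was called under 0.05. The scripts were tested on simulated data. For arrays, their number limits the precision. Detection calls were not used here.

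The members and lists were chosen with earlier results of these data known. Values on every array are given for members past the threshold in a line, the 5 with the smallest p in each line, the member of each role with the smallest p, and SREBF1, SREBF2, INSIG1 and INSIG2; for line levels, the 4 largest differences past the threshold in each direction; of each other list up to 3 genes past the threshold, or the gene with the smallest p. FADS2 was added after its values were seen. Alternatives covered scaling, filtering, the choice of row, the prior, parental arrays, related clones and single arrays left out.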

Additional observations from a re-analysis of the deposited data

How the results depend on the processing

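The 2 members called in H4 became 1 under several alternatives, and the gene that stayed was not always the same. ABCA1 stayed with quantile normalization, with array medians aligned, without a filter, with a trended and robust prior and without the parental arrays. SC5D stayed with the stricter filter and with clones of the same parent averaged. The count was 0 when each line was fitted alone, where the lowest adjusted p was 0.0868. Leaving out 1 array at a time gave 0 to 3: 0 without clone 12 or clone 8-3, and FDPS, HMGCS1 and NSDHL without clone 10. ABCA1 alone was called without the parental cells and SC5D alone without clone 8-1. Without clone 88-1, FADS2 was called (limma adjusted p = 0.00179), and SC5D (0.11) and ABCA1 (0.135) were not. With 42MGBA clones 53 and 92 as replicate blocks (clone numbers from the titles), which left the H4 arrays unblocked, the count was 2. The genes were ACAT2 and SC5D, with ABCA1 at a limma adjusted p of 0.0551. Members called for the difference between H4 and 42MGBA numbered 0 to 1 with 1 array left out (FADS2 without clone 88-1). For the difference between H4 and HCT116 they numbered 1 with array medians aligned (SREBF2, adjusted p = 0.046) and 0 to 1 with 1 array left out (SREBF2 without clone 10 or 8-1). The counts for 42MGBA, HCT116, the mean and 42MGBA against HCT116 were 0 under every alternative run, and the line level gave 10 to 17. Fitting each line alone cannot give a mean, a difference between lines or a line level. With the stricter filter ABCA1 was not tested, since it was above the median on 7 arrays and 8 were required. The cause of the other changes was not tested.

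The values that changed sign were all uncalled. With quantile normalization NSDHL in HCT116 was 0.01 and FADS1 in 42MGBA 0.0. With the replicate block SC5D in 42MGBA was -0.01. With clones of the same parent averaged it was -0.06, and INSIG1 and FADS1 in H4 were each -0.02. With 1 array left out the ranges that crossed 0 were HMGCS1 in HCT116 from -0.02 to 0.58, FDPS in HCT116 from -0.05 to 0.37, SQLE in HCT116 from -0.14 to 0.72, TM7SF2 in H4 from -0.02 to 0.23, TM7SF2 in 42MGBA from -0.09 to 0.10, NSDHL in HCT116 from -0.25 to 0.21, SC5D in 42MGBA from -0.28 to 0.17, INSIG1 in H4 from -0.34 to 0.34, INSIG1 in HCT116 from -0.02 to 0.42, INSIG2 in H4 from -0.10 to 0.24, FADS1 in H4 from -0.09 to 0.37, FADS1 in 42MGBA from -0.11 to 0.00 and ABCA1 in HCT116 from -0.02 to 0.33.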
